A study of Mus musculus with 2 samples.

Results

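The genes described here are 10 that mark the tuft cell lineage or give the cell its structure and surface: the transcription factor genes Pou2f3, Gfi1b, Hmx2 and Hmx3, and Dclk1, Avil, Sh2d6, Sh2d7, Siglecf and Chat. They were picked by gene symbol, with earlier results of these data known. All 10 were found among the 27275 genes of the deposited expression table. RNA came from small intestine, described by the submitters as its proximal part, of naive mice, with 1 library per genotype. The knockout (KO) library carries the genotype label Spibfl/flVillin-Cre, in which Cre recombinase under the villin promoter removes a floxed Spib gene in gut epithelium. The wild-type (WT) library is labelled Spib+Villin-Cre, so both labels name the Cre transgene. Immune cells of the knockout do not express villin, and their Spib gene is not a target of this Cre. The age and sex of the mice, and any pooling of mice, are not stated in the labels.

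Tuft cells are rare chemosensory cells of the gut epithelium that carry a tuft of long microvilli. They sense succinate and other products of parasites and microbes through a pathway shared with taste cells, and they release interleukin-25, which drives type 2 immunity. Interleukin-13 from innate lymphoid cells in turn acts on epithelial progenitors and raises the number of tuft cells. POU2F3 is required for the lineage, and mice without it lack tuft cells. The product of Spib is a transcription factor of the ETS family that is required for M cells, is used by B cells and is also transcribed in tuft cells.

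Values are FPKM, a read density scaled to gene length and library size, so levels of different genes are per length. With 1 library per genotype nothing was tested, and every difference is one between these libraries. Intervals are exact at 95%, rest on read numbers recovered from the FPKM values, and cover counting error only. PCR copies are not independent molecules, so they can be too narrow. The implied library sizes were 17425640 reads for the wild type and 17658566 for the knockout. Spib itself had 247 reads in the WT library and 30 in the KO library, or 4.94 and 0.592 FPKM, and so went with the labels. B cells also use Spib, and 8 B cell markers summed to 28.1 FPKM in the WT library and 10.4 in the KO library. The part of B cells in the Spib value was not tested. Epithelial marker genes such as Epcam and Krt8 summed to 6644 FPKM in the WT library and 6596 in the KO library, so epithelial RNA was abundant in both. Among these 8 markers none differed 2-fold.

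All 10 genes had higher FPKM in the KO library than in the WT library. The plain FPKM ratio ran from 2.24 for Hmx2 to 5.98 for Siglecf, with a median of 4.30. Among the 11050 genes with a mean FPKM in the range of these 10 and reads in both libraries, 3.76% were higher in the KO library by 2-fold or more of the same ratio and 6.94% were at least 2-fold lower. The 10 were chosen with earlier results of these data known, so their contrast with these shares is not independent support. On the log2 scale with 1 FPKM added to each value, which shrinks the difference of low genes, 6 of the 10 were at least 2-fold higher and none was 2-fold lower. Unless the plain ratio is named, counts past 2-fold given for other gene lists use this ratio with 1 FPKM added. A low gene can thus have a larger plain ratio and still lie within 2-fold. For the 13479 genes that reach 1 FPKM in a library, the share past that line was 1.61% higher and 2.51% lower. The median log2 ratio was 1.30 over the 10 genes and -0.05 over those 13479. That level was reached by 8 of the 10, and 3 of them, Pou2f3, Hmx3 and Chat, reached it in the KO library alone. Gfi1b and Hmx2 stayed below it in both. In whole tissue, more tuft cells and more of these transcripts per cell cannot be told apart.

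**Figure D1:**
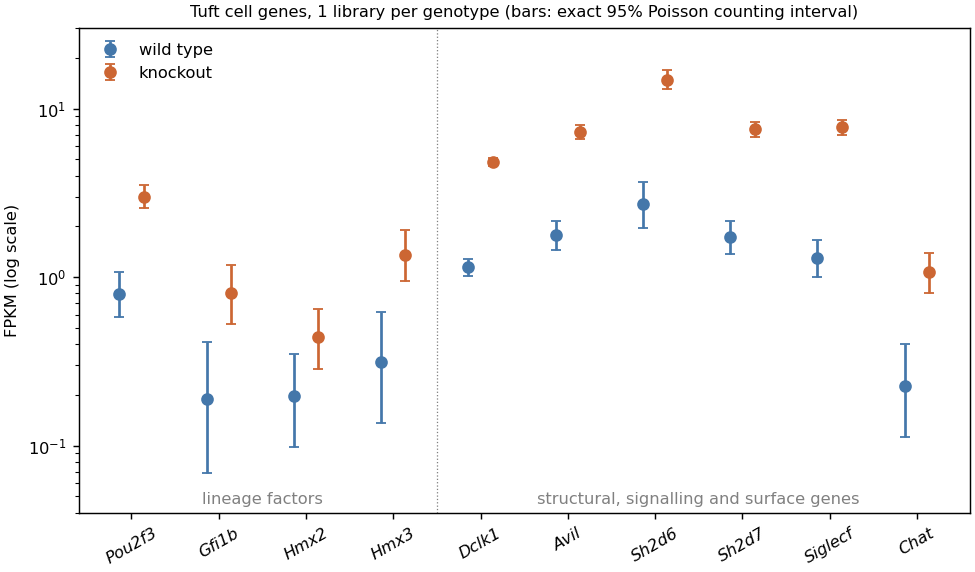
FPKM of the 10 genes on a log axis in the WT library (blue) and the KO library (orange), with exact 95% Poisson intervals for counting error. The knockout value is the higher one for every gene, and only the intervals of Hmx2 overlap. Those of Sh2d6 and Chat rest on the smallest whole pair of reads and may be too wide.

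The lineage factors all lay below 1 FPKM in the WT library. Pou2f3 (ENSMUSG00000032015, minus strand of chromosome 9, 43123939 to 43210369, mm10), the POU domain factor that specifies tuft cells, had 0.799 FPKM from 43 reads in the WT library and 3.01 FPKM from 164 reads in the KO library. That is 3.76-fold higher, with an interval of 2.68 to 5.40. Of these 4 factors it was the only one past 2-fold after 1 FPKM was added, with a log2 ratio of 1.16.

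Gfi1b (ENSMUSG00000026815, minus strand of chromosome 2, 28609450 to 28621982) encodes a zinc-finger repressor that is known from red cell and platelet precursors and is also a tuft cell marker. It had 6 reads in the WT library and 26 in the KO library, or 0.188 and 0.805 FPKM, a 4.28-fold difference with a wide interval of 1.72 to 12.7. Its log2 ratio with 1 FPKM added was 0.60, since both values lie under 1. The start of this gene is shown as that of a lineage factor whose repressor function is well known. The window covers 250 bases before the RefSeq transcription start and 50 after it on chr2:28621933-28622232 (GRCm38.p6, the assembly of mm10, minus strand), read 5′ to 3′. Capitals mark each GGAA on either strand (TTCC on the other strand), the core that ETS factors such as Spib bind.
Gfi1b: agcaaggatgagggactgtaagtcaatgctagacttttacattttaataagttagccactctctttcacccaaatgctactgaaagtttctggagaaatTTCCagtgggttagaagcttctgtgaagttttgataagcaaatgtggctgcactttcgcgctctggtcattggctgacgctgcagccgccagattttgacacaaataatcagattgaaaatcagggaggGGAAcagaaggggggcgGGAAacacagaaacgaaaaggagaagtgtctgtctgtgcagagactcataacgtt

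Hmx2 and Hmx3 are homeobox genes that lie side by side on the plus strand of chromosome 7, 3848 bases apart. Hmx3 (ENSMUSG00000040148, 131542867 to 131544925) had 8 reads in the WT library and 35 in the KO library, or 0.315 and 1.36 FPKM, 4.32-fold higher (interval 1.97 to 10.8). Hmx2 (ENSMUSG00000050100, 131548773 to 131558014) had 11 and 25 reads, or 0.196 and 0.440 FPKM, 2.24-fold higher (1.06 to 5.05). Hmx2 was the gene with the smallest ratio of the 10, and its interval nearly reaches 1. The intervals of the neighbours overlap, and the Hmx2 ratio was not tested against the Hmx3 ratio. Fgfr2, a growth factor receptor gene whose annotation spans both on the opposite strand, had 966 and 822 reads. The labels do not say whether strand was kept. Summed over the 4 factors, 68 reads stood against 250.

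Dclk1 (ENSMUSG00000027797, plus strand of chromosome 3, 55242364 to 55539068), a microtubule-binding kinase and the most used histological marker of tuft cells, had by far the most reads. It had 305 reads in the WT library and 1300 in the KO library, or 1.14 and 4.81 FPKM. The difference was 4.21-fold, with the narrowest interval of the set, 3.71 to 4.78. Its exons in GENCODE M21 sum to 15296 bases, so its FPKM is low for its reads. The gene has a long and a short transcript form with separate starts, and the table gives 1 value for both. Avil (ENSMUSG00000025432, plus strand of chromosome 10, 127000709 to 127020994) encodes advillin, an actin-bundling relative of villin that helps to form the microvillar tuft. It had 105 and 437 reads, or 1.77 and 7.28 FPKM, 4.11-fold higher (3.31 to 5.13).

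Sh2d6 and Sh2d7 encode SH2 domain proteins that bind phosphotyrosine and are transcribed strongly in tuft cells. Sh2d6 (ENSMUSG00000052631, minus strand of chromosome 6, 72513641 to 72521707) had the highest level of the 10 in both libraries, at 2.71 FPKM in the wild type and 14.9 FPKM in the knockout. It was 5.49-fold higher, with an interval of 3.92 to 7.85 from the smallest pair of whole reads that gives this ratio, 41 and 228. Its log2 ratio of 2.10 was the 36th highest of all 13479 genes. Sh2d7 (ENSMUSG00000046460, plus strand of chromosome 9, 54538984 to 54545020) had 83 and 367 reads, or 1.73 and 7.53 FPKM, 4.36-fold higher (3.43 to 5.61). The window at the RefSeq start of Sh2d6, chr6:72519987-72520286 on the minus strand, is shown for the gene with the highest level, with GGAA in capitals as above.
Sh2d6: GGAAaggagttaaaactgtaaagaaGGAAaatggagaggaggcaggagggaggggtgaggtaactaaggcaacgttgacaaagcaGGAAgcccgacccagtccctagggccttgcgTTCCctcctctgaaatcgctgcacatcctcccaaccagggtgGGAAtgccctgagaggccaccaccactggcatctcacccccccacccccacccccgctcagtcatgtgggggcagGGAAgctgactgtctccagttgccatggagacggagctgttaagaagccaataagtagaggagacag

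Siglecf (ENSMUSG00000039013, plus strand of chromosome 7, 43351341 to 43359531) encodes a sialic acid receptor that is found on eosinophils, alveolar macrophages and intestinal tuft cells. It had 63 reads in the WT library and 382 in the KO library, or 1.30 and 7.75 FPKM. The ratio of 5.98 (4.57 to 7.94) was the highest of the set, and the log2 ratio of 1.93 ranked 41st of all genes compared. Chat (ENSMUSG00000021919, minus strand of chromosome 14, 32408203 to 32465989) encodes choline acetyltransferase, which makes acetylcholine in neurons, some lymphocytes and tuft cells. It had 0.225 FPKM in the WT library and 1.07 FPKM in the KO library, 4.75-fold higher. The smallest whole pair for Chat is 11 and 53 reads, which gives an interval of 2.45 to 10.1. The window of Siglecf, chr7:43351091-43351390 on the plus strand, is shown for the gene with the highest ratio, with GGAA in capitals.
Siglecf: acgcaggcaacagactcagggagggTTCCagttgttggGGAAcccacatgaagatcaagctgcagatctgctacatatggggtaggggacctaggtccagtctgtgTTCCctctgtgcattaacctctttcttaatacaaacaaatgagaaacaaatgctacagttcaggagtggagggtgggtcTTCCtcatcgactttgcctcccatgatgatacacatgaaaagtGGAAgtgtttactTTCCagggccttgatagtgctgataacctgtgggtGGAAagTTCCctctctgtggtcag

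**Figure D2:**
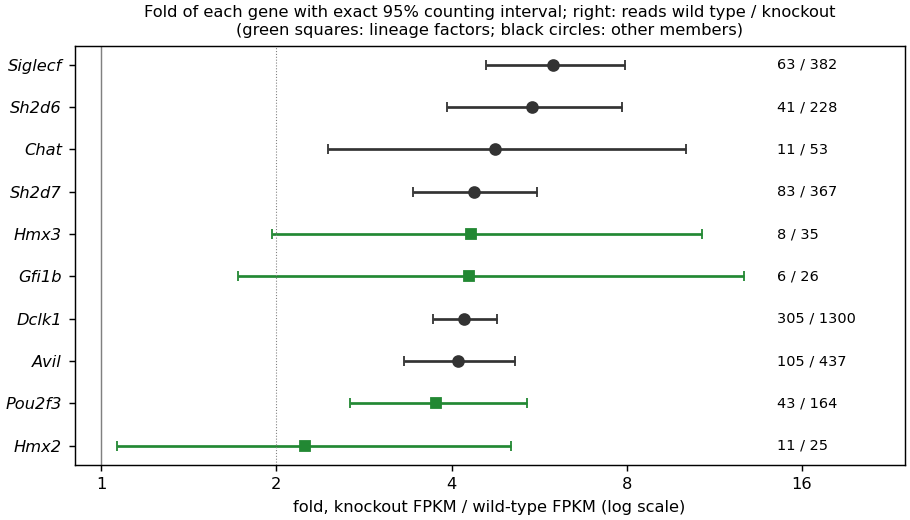
Ratio of knockout to wild-type FPKM for each gene on a log axis, with the exact 95% counting interval and the reads in each library at the right. For Sh2d6 and Chat the reads are the smallest whole pair with that ratio, so their intervals may be too wide. Ratios run from 2.24 to 5.98, the interval of Dclk1 (305 and 1300 reads) is the narrowest, and all intervals overlap.

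Among the 10 genes, none of the 45 pairs had counting intervals of the ratio that lie apart, and 6 of the 10 ratios fell between 4 and 5. This does not show that the ratios are equal. Overlap of intervals is not a test of a difference, and Gfi1b, Hmx2, Hmx3 and Chat have few reads. The median ratio was 4.02 for the 4 factors and 4.56 for the other 6 genes. The order of the levels was nearly the same in both libraries. In the WT library it ran Sh2d6, Avil, Sh2d7, Siglecf, Dclk1, Pou2f3, Hmx3, Chat, Hmx2 and Gfi1b. Each gene's Poisson interval overlapped that of the next one down, which is not a test of their difference. In the KO library it ran Sh2d6, Siglecf, Sh2d7, Avil, Dclk1, Pou2f3, Hmx3, Chat, Gfi1b and Hmx2. There the Poisson intervals separated 4 of the 9 neighbouring pairs: Sh2d6 from Siglecf, Avil from Dclk1, Dclk1 from Pou2f3, and Pou2f3 from Hmx3. Siglecf thus moved from the fourth place to the second, although the intervals of Siglecf, Sh2d7 and Avil overlap in both libraries.

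**Figure D3:**
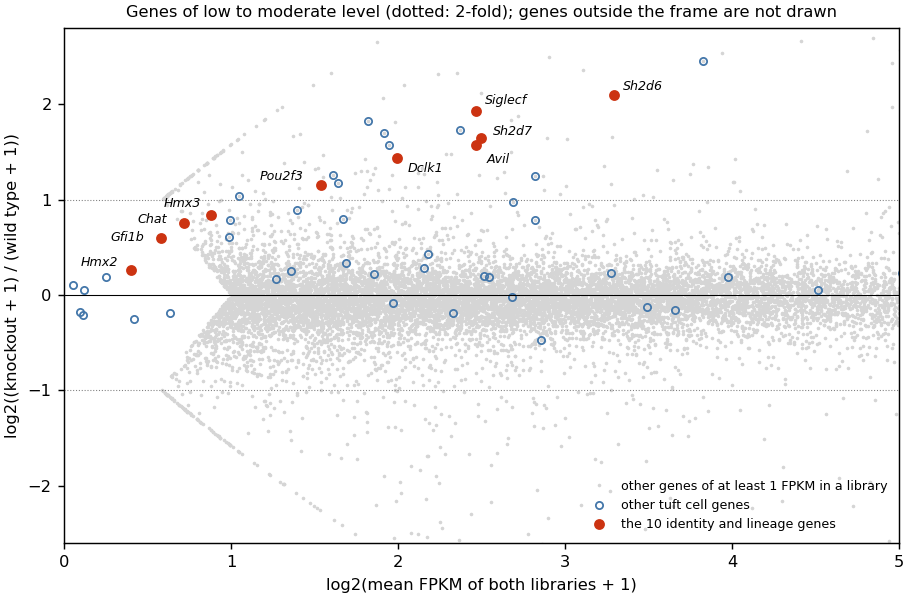
Log2 ratio of knockout to wild-type FPKM with 1 FPKM added, against mean level, for genes that reach 1 FPKM in a library (grey), other tuft cell genes (blue circles) and the 10 genes (red). All 10 lie above 0, and 6 lie above the dotted 2-fold line.

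The starts of these genes held none of 4 motifs searched. RefSeq promoter windows of 300 bases were available for 9 of the 10 genes, 11 windows in all, and Pou2f3 had none in the table. The motifs, on both strands, were the octamer ATGCAAAT of POU2 factors, GAGGAAGT as a SPI factor site, the GFI1 consensus site and CAAGTG for HMX factors. Over all 32851 windows they were found in 1.74%, 3.20%, 0.785% and 13.6%. The short core GGAA, which is part of GAGGAAGT and was searched after the others had no match, was in all 11 windows, as it was in 96% of all windows. It occurred 3 times in the Gfi1b window, 6 times in that of Sh2d6 and 8 times in that of Siglecf, beside a median of 3 over all windows. These are matches of letters within short windows and not binding sites.

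Genes beside the 10 on the chromosome were mostly close to equal in the libraries. Of the 2 nearest table genes on each side, 36 were not among the 10, and 22 of those had at least 1 FPKM in a library. Their median log2 ratio was 0.05, with 1 gene at least 2-fold higher and 1 at least 2-fold lower, beside 1.61% and 2.51% of all genes. The higher one was Mir26a-2 near Avil, with 0 and 2 reads, and the lower one was Nkg7 near Siglecf, a granule gene of cytotoxic lymphocytes, with 65 and 23 reads. Bub3, which lies 2208 bases beyond Hmx2, had 1030 and 984 reads. Ctdsp2, only 734 bases before Avil, had 4277 and 3180. Well covered genes that overlap one of the 10 on the opposite strand differed little: Tsfm at Avil had 293 and 249 reads, and Cib2 at Sh2d7 had 52 and 67. Dclk1 overlaps 5 small loci with at most 2 reads in either library, among them Gm21954 with 0 and 2.

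**Figure D4:**
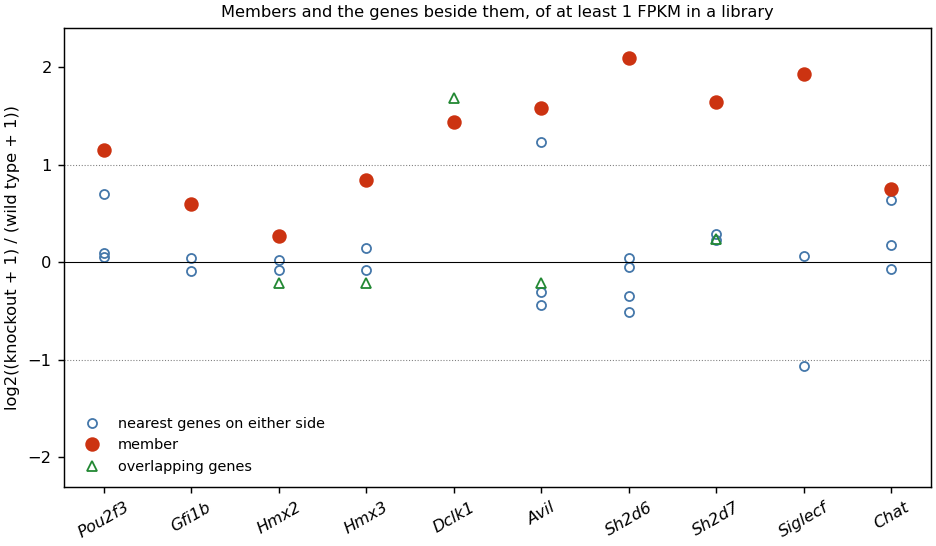
Log2 ratio, with 1 FPKM added, of each of the 10 genes (red), the nearest genes on either side (open blue) and overlapping genes (green triangles) of at least 1 FPKM in a library. Most neighbours lie between -0.5 and 0.5, and the triangle above Dclk1 is Gm21954 with 0 and 2 reads.

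Other genes of the tuft cell programme were mixed, with a subset at ratios like those of the 10 or above them. Of 13 taste transduction genes, 4 were 2-fold or more higher in the KO library, none was 2-fold lower and 9 lay between, with a median log2 ratio of 0.10. That median depends on genes with hardly any reads: over the 8 that reach 1 FPKM in a library it was 1.30, beside 1.51 over the 8 of the 10 that do. Of those taste genes, Gnat3, Sucnr1 and Ffar3 reach 1 FPKM in the KO library alone, so the filter favours higher values. By the plain ratio, for genes above 0 in both libraries, 5 of the 13 were at least 2-fold higher and none was 2-fold lower. Rgs13, a G-protein regulator, had 97 and 671 reads, 6.83-fold higher (5.51 to 8.54), and the G-protein subunit gene Gnat3 had 13 and 108. The channel Trpm5 had 155 and 786 reads, and the succinate receptor Sucnr1 had 22 and 138, 6.19-fold higher (3.93 to 10.2). The ratios of Rgs13, Gnat3 and Sucnr1 lay above the 5.98 of Siglecf, the highest of the 10, although their intervals overlap that of Siglecf. Plcg2 and Itpr3, which many cell types express, had 12.3 against 10.9 FPKM and 21.4 against 22.2 FPKM. G-protein subunits usually counted as tuft markers were scarcely seen: Gng13 had 0 and 1 reads and Gnb3 had 3 and 5. Of the 13 taste genes, 9 were higher in the KO library and 4 were lower. Among the lower ones, the taste receptor genes Tas1r1 and Tas1r3 had 8 and 0 reads and 40 and 28 reads. Gng13, Gnb3, Tas1r1 and Tas1r3 were named after their values were seen.

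Genes of eicosanoid synthesis and cytokine signalling were mixed as well. Of 9 such genes, 1 was at least 2-fold higher and 8 lay between, with a median of 0.20. By the plain ratio, 4 of the 9 were at least 2-fold higher and 1 was at least 2-fold lower, some of them with few reads. Alox5, the enzyme that starts leukotriene synthesis, had 65 and 240 reads, 3.64-fold higher (2.76 to 4.87). The interleukin-25 receptor chain Il17rb had 1.32 and 3.04 FPKM, Alox5ap had 0.566 and 1.40, and the cyclooxygenase Ptgs1 had 7.88 and 9.45. Hpgds had 1.27 and 1.54 FPKM, and the interleukin-13 receptor chain Il13ra1 had 46.4 and 48.3. Il25 itself, named after its values were seen, had 2 reads in the WT library and 5 in the KO library, too few to compare.

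Among 22 other tuft markers, 4 were at least 2-fold higher, none was 2-fold lower and 18 lay between, with a median of 0.27. By the plain ratio, 6 of the 22 were at least 2-fold higher and none was 2-fold lower. The kinase genes Bmx and Matk had 50 and 260 reads and 64 and 268 reads, and the keratin gene Krt23 had 87 and 247. Bmx was 5.13-fold higher (3.78 to 7.09), within the range of the 10. The lowest of this list were Skap2, with 861 and 741 reads, and Rac2, with 7.39 and 5.06 FPKM, both also expressed by blood cells. The part of other cell types was not tested for any gene of the tuft lists, higher or lower. The list of other tuft markers holds abundant genes of more than one cell type, such as Plac8, and its summed FPKM differed 1.21-fold. The sum over the 10 genes differed 4.72-fold, from 10.4 to 48.9 FPKM.

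Regulators around the lineage showed a division among the POU2 cofactors. The gene 1810046K07Rik, the mouse counterpart of the cofactor POU2AF2 that works with POU2F3 in tuft cells, had 65 and 198 reads, 3.01-fold higher (2.26 to 4.04). Colca2, the counterpart of POU2AF3, had 59 and 105 reads, 1.76-fold higher (1.27 to 2.46). Pou2af1, the cofactor of B cells, had 319 and 102 reads, 3.17-fold lower. The POU2 relatives Pou2f1 and Pou2f2 had 515 and 465 reads and 83 and 37 reads. Atoh1, the factor of secretory cells, had 14.2 and 17.6 FPKM, and Ascl2, a stem cell factor, had 2.26 and 2.83. Of the 12 regulators listed, 1 was 2-fold higher and 2 were 2-fold lower, Spib and Pou2af1.

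Relatives of the 10 in their own gene families lay within 2-fold with 1 FPKM added to each value. Gfi1, which acts in goblet and Paneth cells and in blood cells, had 123 and 91 reads. None of the 3 doublecortin relatives of Dclk1, the 7 villin and gelsolin relatives of Avil, the 7 SH2D genes or the 8 Siglec genes measured was past 2-fold in either direction after 1 FPKM was added. Their median log2 ratios were 0.00, -0.11, -0.05 and -0.19. Scin, a villin relative, was the highest of them with 105 and 187 FPKM, and Cd22, a Siglec of B cells, was the lowest with 193 and 73 reads.

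Several of the 10 are also transcribed in cells other than tuft cells, and marker genes of those cells are given here beside them. For Siglecf, the 5 eosinophil markers measured summed to 2.41 FPKM in the WT library and 3.40 in the KO library, 1.42-fold higher, and none was past 2-fold with 1 FPKM added. Epx, the eosinophil peroxidase, had 2 and 3 reads, and Prg2 had 16 and 7. The other markers were higher in the KO library, with 9 and 21 reads for Ear2, 24 and 50 for the eotaxin receptor Ccr3 and 8 and 22 for the interleukin-5 receptor chain Il5ra. Their plain ratios were 2.30, 2.06 (interval 1.24 to 3.50) and 2.71 (1.16 to 7.05), and the median plain ratio of the 5 markers was 2.06. The part of eosinophils in the Siglecf value was not tested. Macrophage markers summed to 109 and 78.1 FPKM.

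For Chat, and for Dclk1, which neurons also transcribe, the 10 enteric neuron markers summed to 16.6 and 19.3 FPKM, and none was past 2-fold. Tubb3, a neuronal tubulin, had 98 and 128 reads, and Ret, a receptor of enteric neurons, had 263 and 251. The vesicular acetylcholine transporter Slc18a3, which neurons use to load acetylcholine and which lies within the Chat locus, had 24 reads in the WT library and 12 in the KO library. Among 9 genes of acetylcholine handling none was past 2-fold with 1 FPKM added. Bche was the highest at 21.6 and 32.8 FPKM, and the nicotinic receptor gene Chrnb4 was the lowest at 109 and 44 reads. By the plain ratio 2 of the 9 were at least 2-fold lower and none was 2-fold higher. These were Chrnb4, 2.51-fold lower (1.75 to 3.65), and Slc18a3, 2.03-fold lower (0.975 to 4.45). Lymphocyte markers were lower in the KO library, with sums of 28.1 and 10.4 FPKM for 8 B cell genes and 17.9 and 6.93 for 8 T cell genes. All 16 of these were lower there, 3 of them by at least 2-fold with 1 FPKM added. By the plain ratio, 7 of the 8 B cell genes and 7 of the 8 T cell genes were at least 2-fold lower. Their median plain ratios were 0.365 and 0.383.

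For Gfi1b, the 9 megakaryocyte and erythroid markers summed to 10.5 and 9.97 FPKM, and none was past 2-fold. Pf4, a platelet chemokine, had 43 and 36 reads. Mast cell and basophil markers went the same way as the 10, with sums of 7.52 and 22.4 FPKM over 7 genes, 2 of them at least 2-fold higher and none lower. The mucosal mast cell protease Mcpt1, which can share reads with close relatives, had 1.79 and 8.98 FPKM, 5.03-fold higher, and the stem cell factor receptor Kit had 690 and 1243 reads. Fcer1a had 0 and 14 reads, 4.61-fold higher against a floor of 3 reads, and Mcpt8, a basophil protease, was listed at 0 in both. The 13 mitochondrially encoded transcripts had a median log2 ratio of 0.59, with 12 higher in the KO library. The part of mast cells and of mitochondrial transcripts in the values of the 10 was not tested.

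**Figure D5:**
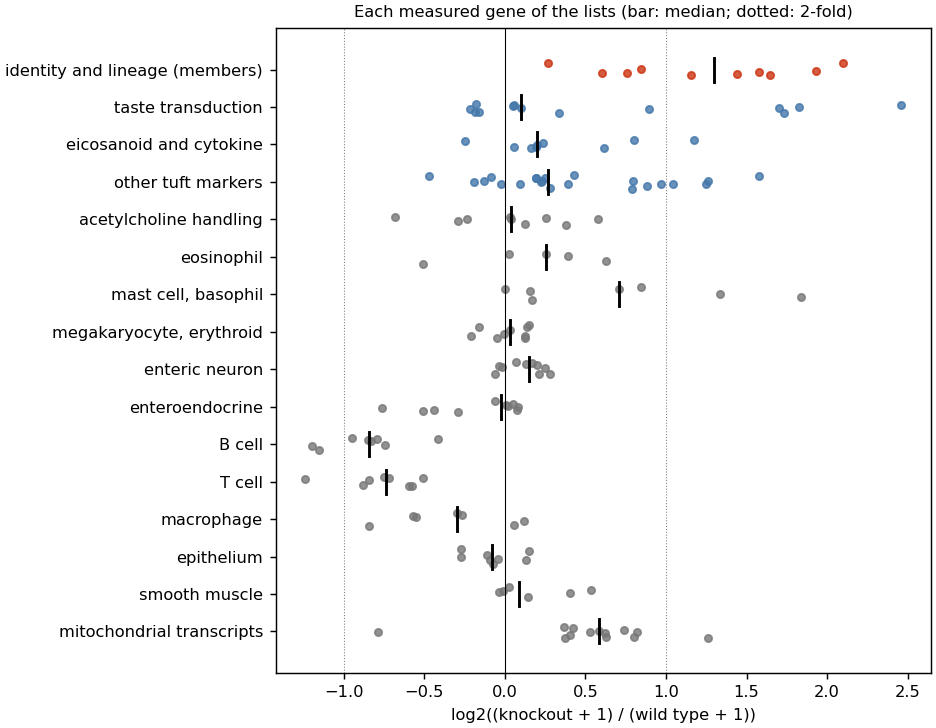
Log2 ratio, with 1 FPKM added, of every measured gene in the 10-gene set (red), other tuft cell lists (blue), and lists of acetylcholine handling, other cell types and mitochondrial transcripts (grey). Bars are medians: 1.30 for the 10 genes, 0.10 to 0.27 for the other tuft lists with their near-zero genes included, -0.84 for B cells and -0.08 for epithelium.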

How the data were processed

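RNA-seq libraries of mouse small intestine were compared, 1 per genotype, grouped by their titles. Per the labels' protocols, RNA was extracted with TRIzol and cDNA amplified by SMART-Seq II. The authors deposited FPKM values in 1 table. The submitters' processing notes name Bowtie2 2.2.3, HTSeq 0.6.0 and mm10, without roles. Annotation release, strand, filters and pooling are not stated there, and how ambiguous reads were counted affects overlapping genes.

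Read numbers were recovered as FPKM times the exon length in GENCODE M21 (GRCm38, 27222 of 27275 identifiers found), where 90.6% and 90.7% of values above 0 in the wild-type and knockout libraries were whole within 0.01 reads. Where the length gave no whole number (Sh2d6 and Chat among the 10), the smallest whole pair with the same ratio was used, so true numbers may be larger multiples. A fold is the plain FPKM ratio, with a Clopper-Pearson interval of the share of reads. Log2 ratios use a pseudocount of 1 FPKM, and genes of at least 1 FPKM in a library count as compared. The method was tested on simulated Poisson counts with known exon lengths. These hold no PCR copies and no mismatched lengths, so they do not test the intervals of these libraries. Python 3.11.15 with scipy 1.17.1 was used. Named genes are the 10, Spib, up to 4 genes with the highest and 2 with the lowest log2 ratio of each list, and overlapping genes, with a selection of these printed. Members and lists were chosen with earlier results of these data known. Alternatives covered the pseudocount, filter and scaling. A further gene of the lists is not reported here.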

Additional observations from a re-analysis of the deposited data

How the results depend on the processing

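With 1 library per genotype no replicate could be left out. No paired analysis was possible because each genotype has a single library. All 60 values of single genes of the 10 under the other pseudocounts and scalings stayed above 0, and none was 2-fold lower. A pseudocount cannot change the direction of a difference, and the scalings were small beside these ratios. That outcome could therefore not have differed. With a pseudocount of 5 FPKM, only 2 of the 10 genes were at least 2-fold higher and their median log2 ratio was 0.57, since a larger pseudocount shrinks low values. With 0.1 FPKM, and with values rescaled to an equal sum in both libraries (TPM), 9 were. FPKM values summed to 369550 in the WT library and 377241 in the KO library, and TPM values are larger. The 1 added to each TPM value therefore weighs less than 1 FPKM, much like a smaller pseudocount. Spib had a log2 ratio of -2.86 with 0.1 FPKM, -0.83 with 5 FPKM and -2.48 in TPM. Over all genes, those 2-fold higher and lower numbered 355 and 575 with 0.1 FPKM, 61 and 122 with 5 FPKM, and 97 and 193 among genes of at least 5 FPKM. Rescaling without mitochondrial transcripts, chosen after seeing the data, left 6 of the 10 past 2-fold. Depth limits Gfi1b, Hmx2, Hmx3 and Chat most.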

Other observations

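Some genes of the lists were not given by value above. Cd24a, a surface glycoprotein gene of crypt and tuft cells, had 101 FPKM (WT) and 187 FPKM (KO), from 4542 and 8503 reads. Enteroendocrine hormone genes, which belong to another rare epithelial lineage, had no member past 2-fold among 10: Pyy had 257 and 149 reads, Gcg had 603 and 646, and the transcription factor gene Neurod1 had 69 and 77. Siglecg, a neighbour of Siglecf that B cells express, had 75 and 19 reads. Smooth muscle genes summed to 504 and 558 FPKM.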
